A study of Mus musculus with 2 samples.

Results

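Pulmonary surfactant is a film of phospholipid and protein that lowers surface tension in the air spaces. Type 2 alveolar cells make it, store it in lysosome-related organelles called lamellar bodies and secrete it, and the fetal lung raises its output late in gestation, in preparation for air breathing. The genes described here encode the surfactant proteins Sftpa1, Sftpb, Sftpc and Sftpd, the lamellar body proteins Abca3, Lamp3 and Napsa, and the type 2 cell products Slc34a2, Lyz2 and Cxcl15. Of these 10 genes, 9 had a probe set of their own on the array, 15 probe sets in all of 45037, and the 9 are among 18193 genes with a probe set of their own. Lamp3, a membrane glycoprotein of lamellar bodies, was represented by 1 probe set that the platform annotation also lists for Ppid, so no value is given for it.

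Whole mouse lungs at embryonic day 18, shortly before birth, were the source of RNA for 2 Affymetrix arrays: a single wildtype array and a single array of Nmyc9a homozygotes, which carry a hypomorphic allele of Mycn. Each array measured RNA from pooled lungs, and the strain, the sex and the size of the pools are unknown here. The comparison asks how transcripts differ just before birth in lungs with reduced function of N-Myc, a transcription factor of growing epithelium. With 1 array per group there is no replicate check, no difference below carries a p-value, and the number of arrays limits the precision. A pool also hides the spread between animals. The yardstick used below is how far probe sets of the same gene differ in log2 ratio, with an SD of 0.40 (1.32-fold) pooled from 5671 genes. Only 629 of these genes had a brightest probe set at 1000 or more. All probe sets were read on the same 2 arrays, so the SD holds no variation between arrays, pools or animals. It is therefore no measure of error for a difference between the groups.

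Signals are the authors' linear intensities, with those of the array labelled Nmyc9a multiplied by 0.977 to centre the arrays, and log2 ratios are Nmyc9a over wildtype. Signals under a floor of 49.3 were raised to it for ratios. A gene is represented by its brightest probe set and counts as measured when its mean signal reached the floor, as 12600 genes did. Mycn itself did not read lower on the array labelled Nmyc9a. Its 3 probe sets read 66.3 and 84.8, 51.1 and 85.4, and 19.7 and 33.9 on the wildtype and the other array, all near or under the floor, and their position with respect to the altered sequence is unknown here. The signal therefore could not check the label, and the array is called by its label throughout. Markers of the lung were present on both arrays, with all 9 epithelial, 10 type 1 cell, 8 club cell, 8 endothelial and 8 mesenchymal markers on the array measured. Proliferation markers were at least 1.5-fold lower in 7 of 7 and mesothelial markers in 3 of 5 on the array labelled Nmyc9a, beside 9.70% of all measured genes. Liver markers were at least 1.5-fold higher in 4 of 6, beside 6.33%. The part of such differences in the values below was not tested.

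Promoter sequences were compared to show what stretches of DNA precede these genes. RefSeq's table for GRCm38.p6 held a window for 7 of the 10 genes, and Sftpc, Sftpd and Napsa were not in it. The 250 bases before the start are printed for 2 surfactant protein genes and for 2 lamellar body or membrane transporter genes, 5′ to 3′ on the strand of the gene. Capitals mark letters searched on both strands: CTCAAG, a core bound by the lung transcription factor NKX2-1, TATAAA, the TATA box, TTGCNNAA, a core of C/EBP factors, and TGTTTAC, a core of FOXA factors. No 2 of these matches overlapped in the windows of the 7 genes.
Sftpb (chr6:72304360-72304609, + strand): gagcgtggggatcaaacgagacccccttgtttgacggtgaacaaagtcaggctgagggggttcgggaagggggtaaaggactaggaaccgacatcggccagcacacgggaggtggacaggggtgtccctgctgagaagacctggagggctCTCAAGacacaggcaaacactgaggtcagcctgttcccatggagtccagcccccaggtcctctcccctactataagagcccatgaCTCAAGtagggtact
Sftpa1 (chr14:41131538-41131787, + strand): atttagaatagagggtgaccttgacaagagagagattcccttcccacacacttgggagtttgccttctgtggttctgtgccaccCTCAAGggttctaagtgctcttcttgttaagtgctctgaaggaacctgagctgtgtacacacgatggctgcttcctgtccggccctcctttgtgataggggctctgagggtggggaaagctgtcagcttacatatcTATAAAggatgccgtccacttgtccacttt
Slc34a2 (chr5:53049103-53049352, + strand): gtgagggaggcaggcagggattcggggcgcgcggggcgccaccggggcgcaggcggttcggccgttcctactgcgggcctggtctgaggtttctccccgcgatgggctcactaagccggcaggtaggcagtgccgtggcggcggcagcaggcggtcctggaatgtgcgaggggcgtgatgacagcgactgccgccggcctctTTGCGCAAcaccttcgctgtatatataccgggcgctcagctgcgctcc
Abca3 (chr17:24351773-24352022, + strand): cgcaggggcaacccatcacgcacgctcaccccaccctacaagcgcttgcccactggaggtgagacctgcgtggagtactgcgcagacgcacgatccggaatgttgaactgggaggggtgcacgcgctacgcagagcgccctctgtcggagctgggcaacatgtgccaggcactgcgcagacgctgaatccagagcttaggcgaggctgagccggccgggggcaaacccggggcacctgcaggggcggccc

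Of the printed windows, the 2 of surfactant protein genes held CTCAAG and the 2 of transporter genes did not. So few windows show no difference between the kinds of gene. CTCAAG stood in 2 of the 7 windows, Sftpb and Sftpa1, and in 13.3% of all 32851 windows of that length. Sftpb held it at 100 to 95 and again at 15 to 10 bases before the start, and Sftpa1 held it at 166 to 161. TATAAA stood at 30 to 25 bases before the start of Sftpa1 and at 27 to 22 before that of Cxcl15, and in 12.4% of all windows. TTGCNNAA stood in the Slc34a2 window alone among the 7, at 48 to 41, where the letters read the same on both strands, and in 9.56% of all windows. TGTTTAC stood at 92 to 86 before the start of Lamp3 and in 3.17% of all windows. The Abca3 and Lyz2 windows held none of the 4. Guanine and cytosine made up 69.6% of the Slc34a2 window and 67.6% of the Abca3 window, against 58.4% in Sftpb, 50.0% in Sftpa1, 46.4% in Cxcl15, 42.4% in Lamp3 and 41.6% in Lyz2. A match is a string of letters and was not tested as a binding site.

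The brightest probe sets of surfactant and lamellar body genes read about alike on the 2 arrays, with Sftpd as the exception. The 6 dimmer probe sets of these genes all had higher ratios than the brightest. Whether the brightest respond in proportion to the amount of RNA was not tested. By brightest probe set, none of the 9 genes was at least 1.5-fold higher and 1, Sftpd, was at least 1.5-fold lower. Of the 12600 measured genes, 6.33% passed the same size rule as higher and 9.70% as lower, so 1 of 9 lower is near the background. The median log2 ratio of the 9 genes was 0.00, with 4 genes above 0, 4 below and Sftpb at 0.00, beside a median of -0.09 over all measured genes. The group's median was 0.14 after quantile normalization and 0.21 after loess. For 8 of the 9 genes the ratio was smaller than the SD between probe sets of a gene. In whole-lung RNA, fewer cells of a type and less RNA per cell cannot be told apart.

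**Figure D1:**
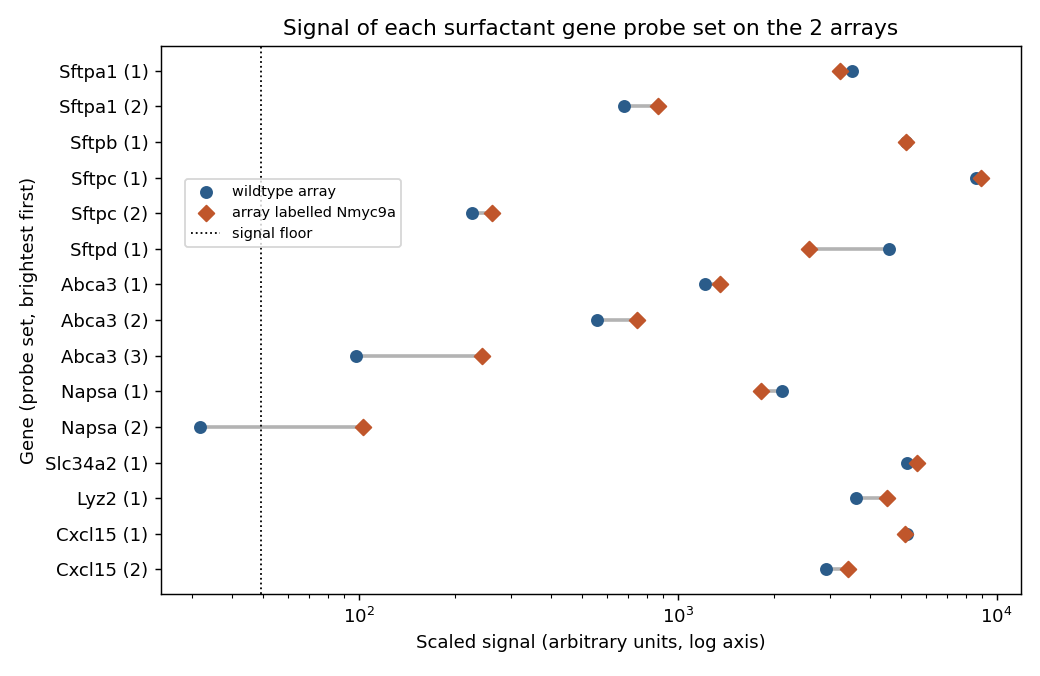
Scaled signal (arbitrary units, log axis) of each of the 15 probe sets, numbered from the brightest within each gene, on the wildtype array (circles) and the array labelled Nmyc9a (diamonds), 1 array each; the dotted line is the signal floor of 49.3. The brightest probe sets of 8 genes lie close together on the arrays, from a log2 ratio of -0.22 for Napsa to 0.32 for Lyz2, while Sftpd reads 4595 and 2589.

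Sftpc and Sftpb encode the small hydrophobic proteins that let surfactant lipid spread at the air-liquid surface. Sftpc, made in the lung by type 2 cells and their distal progenitors, had a signal of 8639 in wildtype and 8966 on the array labelled Nmyc9a (probe set 1418639_at), a log2 ratio of 0.05. These signals ranked 3 and 2 among the 45037 probe sets of their arrays, and by brightest probe set Sftpc ranked 2 among genes on the wildtype array and 1 on the other. A rank depends on how well a probe set responds as well as on the transcript, so ranks and signals of different genes are not read as amounts of transcript. A second Sftpc probe set, 1438290_x_at, was much dimmer, at 225.9 and 261.2, with a log2 ratio of 0.21. The bright and the dim probe set thus lay on the same side of 0, and both ratios were under the SD of 0.40.

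Sftpb, whose protein is needed to form lamellar bodies and tubular myelin, had the most even pair of signals. Its probe set 1437028_at read 5203 and 5202, a log2 ratio of 0.00, and moved from rank 119 to rank 76. Genes outside the group with signals most like those of Sftpc on both arrays were Eef1a1, a translation elongation factor, at 8845 and 8699, Tpt1 at 8331 and 8834, and Actb, cytoplasmic actin, at 7891 and 8403. The likeness is the distance between pairs of log2 signals, 0.06, 0.06 and 0.16, over 2 arrays only, and it concerns probe set signals and not transcript amounts.

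Sftpa1 and Sftpd encode collectins, secreted lectins that bind microbes and surfactant lipid, and they differed from each other. Sftpd had a signal of 4595 in wildtype and 2589 on the array labelled Nmyc9a (probe set 1420378_at, its sole probe set), 1.77-fold lower, and went from rank 162 to rank 342. Its log2 ratio of -0.83 was 2.05 times the SD between probe sets of a gene, on the lower side. In the 9 alternative settings the ratio ran from -0.87 to -0.61. With 1 bright probe set, most of these settings can only shift Sftpd along with other bright genes. Loess (-0.61) also moved all 9 genes by nearly the same amount. Quantile normalization (-0.66) raised the ratios of all but Sftpc. Sftpa1 read 3523 and 3238 by its brightest probe set, 1422334_a_at, a log2 ratio of -0.12, and ranked 260 and 237. The second Sftpa1 probe set, 1429626_at, went the other way at 676.9 and 868.9, a log2 ratio of 0.36, so the gene has no settled direction. Sftpa1 is also above 0 after quantile normalization or loess.

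The gap between Sftpd and the other surfactant proteins, like that between any 2 genes, does not depend on a factor that multiplies a whole array. It can still depend on an effect that varies with signal or is specific to the single Sftpd probe set, which was not tested. The log2 ratio of Sftpd was 0.71 below that of Sftpa1, 0.83 below that of Sftpb and 0.88 below that of Sftpc. It was 0.85 below the median of the other 8 genes, which was 0.03, and 0.61 below the lowest of them, Napsa. Sftpd, Mbl1 and Sftpa1 neighbour each other on chromosome 14 in the RefSeq annotation, with a pseudogene between Mbl1 and Sftpa1. Mbl1, a mannose-binding collectin, read 97.6 and 67.4, a log2 ratio of -0.53, which is under the 1.5-fold rule. Outside the group, the gene most like Sftpd on both arrays was Dynll1, a dynein light chain, at 4570 and 2615 (distance 0.02), followed by Hmgn1 at 4324 and 3019 (0.24) and Cfl1 at 3862 and 2784 (0.27).

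**Figure D2:**
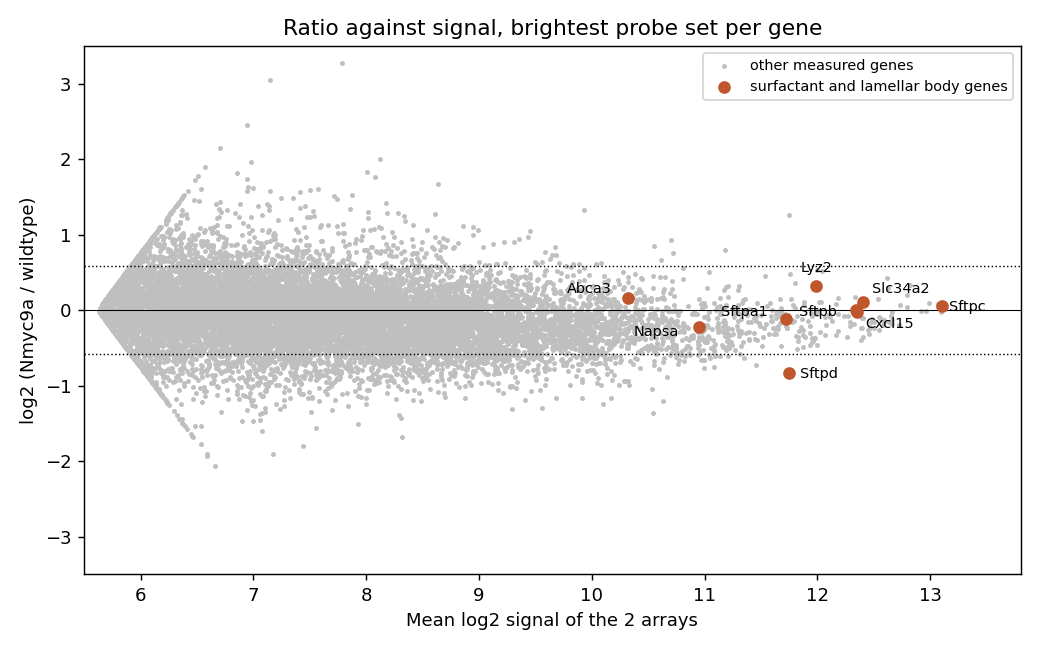
Log2 ratio (Nmyc9a over wildtype, y axis) against mean log2 signal of the 2 arrays (x axis) for each measured gene by its brightest probe set, 1 array per group; dotted lines mark 1.5-fold. The surfactant and lamellar body genes lie at the bright end, and Sftpd at -0.83 is the only one of the 9 beyond a dotted line.

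By their brightest probe sets, lamellar body genes had ratios under the SD between probe sets. Their dimmer probe sets read higher on the array labelled Nmyc9a. Abca3, the transporter that moves phospholipid into lamellar bodies, read 1214 and 1354 by its brightest probe set (1451731_at), a log2 ratio of 0.16. Its second probe set, 1425496_at, read 559.0 and 744.6, a log2 ratio of 0.41. The third, 1451869_at, read 97.9 and 242.7, 2.48-fold higher. All 3 probe sets of Abca3 were higher on the array labelled Nmyc9a, by smaller amounts the brighter the probe set.

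Napsa, the aspartic protease napsin A that takes part in processing the Sftpb precursor, had probe sets on both sides of 0. The brightest, 1423590_at, read 2130 and 1828, a log2 ratio of -0.22. The other, 1430744_at, read 31.8 on the wildtype array, under the floor, and 102.9 on the array labelled Nmyc9a, so that it was at least 2.09-fold higher. By the median of its probe sets Napsa stood at 0.42, and no direction is given for the gene.

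The dimmer probe sets of the group went in 1 direction relative to the brightest of the same gene. In the 5 genes with more than 1 probe set (Sftpa1, Sftpc, Abca3, Napsa and Cxcl15), 6 of 6 dimmer probe sets had a higher ratio than the brightest, by a median of 0.37 on the log2 scale. Over all genes with 2 or more measured probe sets, 59.0% of 9857 dimmer probe sets did so, by a median of 0.09. Where the brightest probe set read 1000 or more, the share was 59.0% of 1484 and the median 0.07. The group's 6 were read on the same 2 arrays and Abca3 gave more than 1 of them, so they are not independent. That of Napsa read 31.8 in wildtype, under the floor. The contrast is therefore not read as a trait of the group. Of the group's 15 probe sets, 2 were at least 1.5-fold higher, the dimmest of Abca3 and of Napsa, and 1 was lower, that of Sftpd. The background over 22457 measured probe sets with 1 gene was 9.32% higher and 9.24% lower. Whether the brightest probe sets still respond in proportion to the amount of RNA was not tested.

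Slc34a2, Lyz2 and Cxcl15 encode other products of type 2 cells. Slc34a2, the sodium-phosphate cotransporter of their surface, read 5244 and 5631 (probe set 1416854_at), a log2 ratio of 0.10, and moved from rank 115 to rank 55. Cxcl15, a chemokine of lung epithelium also called lungkine, read 5255 and 5166 by 1421404_at and 2921 and 3423 by 1456428_at. Its log2 ratios were -0.02 and 0.23, on either side of 0 and both under the SD. Slc34a2 stood above 0 in all 9 alternative settings, from 0.06 to 0.31, whereas Cxcl15 stood above 0 in 5 and below in 4. As for Sftpd, most of these settings can only shift the single Slc34a2 probe set along with other bright genes.

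Lyz2, lysozyme, is expressed by type 2 cells and by macrophages and neutrophils, and had the highest ratio of the 9 genes. It read 3626 and 4519 (probe set 1423547_at), a log2 ratio of 0.32, and moved from rank 248 to rank 128. The ratio stayed under 1.5-fold and under the SD, and was above 0 in all 9 alternative settings, from 0.28 to 0.53. Most of these settings can only shift this single bright probe set along with other bright genes. Lyz1, the paralog whose transcript is closely similar, had 3 probe sets with ratios of 0.30, 0.39 and 0.36. Its pair with the _x_at ending read 5718 and 7022, and 5290 and 6912, and its remaining probe set read 137.7 and 177.3. How far probe sets of the paralogs bind both transcripts is unknown here, so Lyz2 and Lyz1 are uncertain as separate genes.

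Markers of macrophages and neutrophils, which also express Lyz2, lay mostly below 0, with some above. Of 13 measured macrophage markers, 3 passed the size rule as lower and 1 as higher, with 11 below 0 and a median of -0.27. Of all measured genes, 9.70% passed as lower and 6.33% as higher, with a median of -0.09. The summed signal of the 14 macrophage markers on the array was 4183 on the wildtype and 3554 on the other array. C1qb at -0.92 and C1qa at -0.81, complement subunits of macrophages, were the lowest, and Mpeg1 at 0.87 and Tyrobp at 0.15 the highest. Itgam was under the floor on both arrays. Of 8 measured neutrophil markers, 6 lay below 0 and 1 above, with a median of -0.39. By the size rule 2 were lower, Lcn2 by 1.99-fold and S100a9 by 1.89-fold. Csf3r was at least 3.41-fold higher, with its wildtype signal under the floor, and Mpo read 58.8 on both arrays. Their summed signal was 4397 and 3031, with Elane and Prtn3 under the floor on both arrays. The part of these cells in the Lyz2 signal was not tested.

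The brightest probe sets of the group were among the brighter ones of both arrays, and most bright probe sets read lower on the array labelled Nmyc9a. Of the 9 genes, 7 ranked within the first 1% of 18193 genes (the first 181) on each array, and all 9 had a mean signal of 1000 or more. These are places of probe sets in the range of signal and not amounts of transcript. Of 854 genes this bright, 77.4% had a ratio below 0, the median was -0.21 and the 5th and 95th percentiles were -0.69 and 0.30. Of these bright genes, 1.05% passed the size rule as higher and 10.4% as lower. Ratios of 7 of the 9 group genes lay above that median. Lyz2 lay above 95.6% of the bright genes, Abca3 above 89.8%, Slc34a2 above 85.6%, Sftpc above 81.3%, Sftpb above 77.3%, Cxcl15 above 73.8% and Sftpa1 above 62.7%. Napsa lay near the middle, above 49.0%, and Sftpd above 2.46%, with 22 of the 854 at or below it. Of the 15 probe sets of the group, 14 stood at a higher rank on the array labelled Nmyc9a, Sftpd being the exception. Where most bright probe sets read lower, a rank can rise without a rise in signal. Sftpb read 5203 and 5202 and went from rank 119 to rank 76. The share of all probe sets that gained rank was not computed, so the count is not read as a rise of the group. Quantile normalization and loess both bring the bright median to 0.00, and the group's median was then 0.14 and 0.21. The summed signal of the 9 genes was 39430 and 38490, or 0.798% and 0.856% of the summed signal of all genes.

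**Figure D3:**
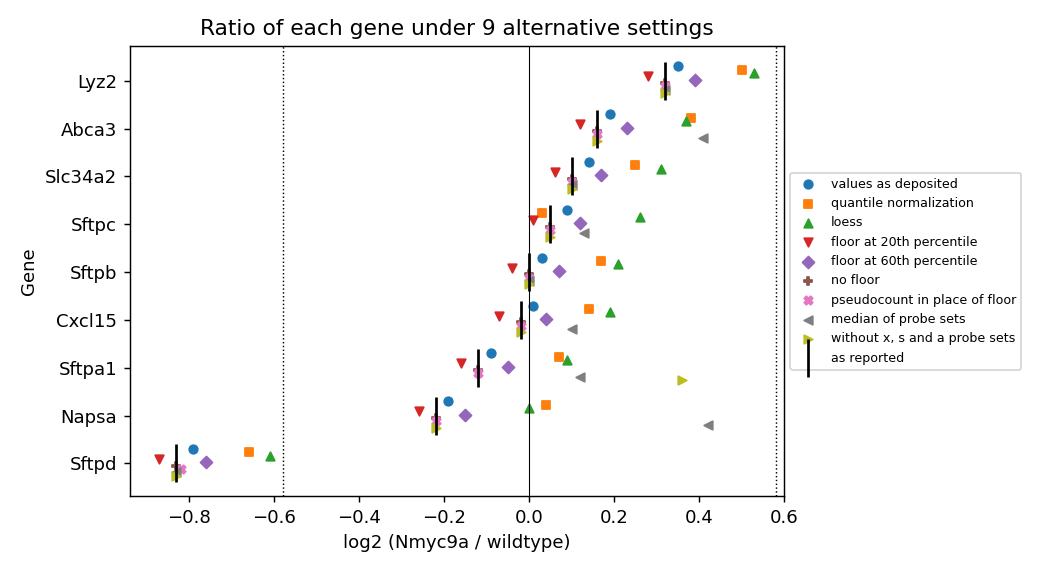
Log2 ratio (Nmyc9a over wildtype, x axis) of each of the 9 genes (y axis) as reported (black bars) and under 9 alternative settings (symbols), 1 array per group; dotted lines mark 1.5-fold. Sftpd stays beyond the lower dotted line throughout, from -0.87 to -0.61, and no gene passes the upper line under these settings. For a gene with 1 bright probe set, such as Sftpd, most settings can only shift it along with other bright genes. Loess moved all 9 genes by nearly the same amount.

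Genes that build and release lamellar bodies, from a list of 26, were mixed. Of 24 measured, 1 was at least 1.5-fold higher and 1 lower, with 10 above 0, 14 below and a median of -0.07. The highest were Itch, a ubiquitin ligase, at 0.79 (195.1 and 337.6), and Vamp2, a vesicle SNARE, at 0.53. The lowest were Vamp8, another vesicle SNARE, at -0.96 (1476 and 756.4), and Anxa7, an annexin, at -0.49. These counts lie near or under the background of 6.33% and 9.70% given above.

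Genes that control secretion and pool size made up a shorter list. Of 5 measured of 8 listed, none passed 1.5-fold and the median was 0.12. Of all measured genes, 6.33% passed as higher and 9.70% as lower, with a median of -0.09. Adgrf5, the adhesion receptor that restrains the surfactant pool, stood at -0.48 (1178 and 847.5) and Prkd1 at -0.23, while P2rx4, an ATP-gated channel of lamellar body membranes, stood at 0.29 and Prkcd at 0.19. P2ry2, the purinergic receptor that triggers release, was under the floor on both arrays. For clearance by macrophages, 4 of 8 listed genes were measured. Csf2rb, a receptor subunit for GM-CSF, stood at 0.60 (138.1 and 209.0), the only 1 of the 4 past 1.5-fold, with Bach2 at 0.27, Abcg1 at 0.25 and Csf2ra at -0.05. Csf2, Pparg and Marco were under the floor on both arrays. Csf2rb2, at 42.1 and 50.8, had a mean signal under the floor. Lists of 5 and 4 measured genes are too short to set apart from the background.

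Transcription factors and other regulators of surfactant genes did not pass 1.5-fold. All 17 listed were measured, none was at least 1.5-fold apart, 11 stood below 0 and the median was -0.11. These counts lie under the background of 6.33% and 9.70%, and the median is close to the array-wide -0.09. With 17 genes, the list is not read as set apart from that background. The lowest were Nr3c1, the glucocorticoid receptor, at -0.38 (911.3 and 699.8), and Wwtr1, a coactivator also called TAZ, at -0.25, and the highest were Nfib at 0.23 and Cebpa at 0.15. Nkx2-1, the factor whose core letters the Sftpb and Sftpa1 windows hold, read 107.8 and 109.9, a log2 ratio of 0.03.

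Enzymes of surfactant phospholipid synthesis read much alike on the arrays. Of 12 measured, 1 was at least 1.5-fold higher and none was lower, near or under the background of 6.33% and 9.70%, with a median of 0.08. Chka, choline kinase, the first enzyme of phosphatidylcholine synthesis from choline, stood at 0.83 (312.4 and 555.3), and Lpin1, a phosphatidate phosphatase, at 0.51. Acly, which makes cytosolic acetyl-CoA, stood at -0.44, and Pcyt1a, the rate-limiting enzyme of phosphatidylcholine synthesis, at -0.17 (738.8 and 655.2). Lpcat1, the acyltransferase that remodels surfactant phosphatidylcholine, read 5190 and 5478, a log2 ratio of 0.08.

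Other type 2 cell markers lay on both sides of 0. Of 18 measured, 2 were at least 1.5-fold higher and 2 lower, near the background of 6.33% and 9.70%, with a median of 0.06. Hc, complement component C5, stood at 0.90 (463.8 and 868.1) and Chia1, a chitinase, at 0.85 (1120 and 2013). Il33, an alarmin cytokine, stood at -1.02 (642.3 and 317.1) and Slc6a14, an amino acid transporter, at -0.63. Markers of other epithelial cells are given beside these values. Of 9 general epithelial markers, 1 was lower, Krt8 at -0.93, and none was higher, with Cldn4 at -0.58, Epcam at 0.52, Spint2 at 0.27 and a median of -0.22. Of 10 type 1 cell markers, 1 was lower, Aqp5 at -0.71, and none was higher, with Pdpn at -0.45, Vegfa at 0.26, Akap5 at 0.10 and a median of -0.25. Of 8 club cell markers, 1 was higher, Scgb3a1 at 1.06, and 1 lower, Aldh1a1 at -0.63, with Scgb1a1 at 0.54, Hp at -0.11 and a median of 0.16. The part of cell composition in the surfactant values was not tested.

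**Figure D4:**
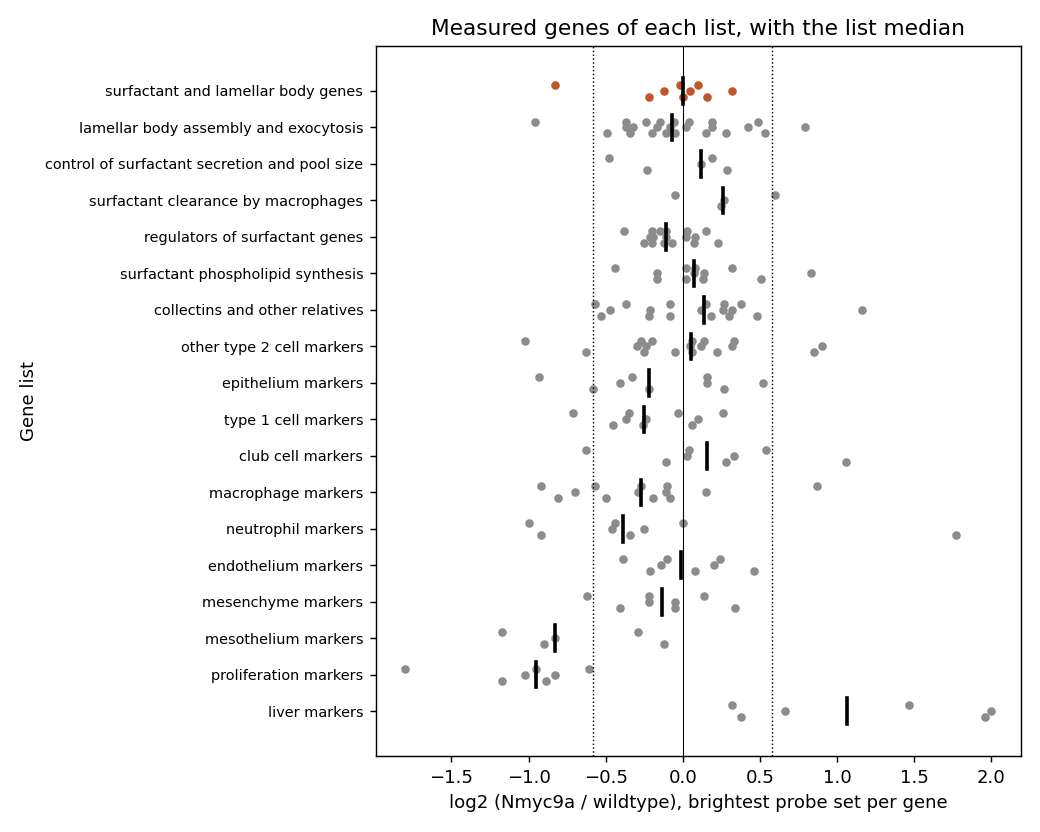
Log2 ratio (Nmyc9a over wildtype, x axis) of every measured gene of each list (y axis), with the list's median as a black bar; dotted lines mark 1.5-fold and each gene is 1 pair of arrays. The surfactant and lamellar body genes centre on 0.00, while proliferation markers centre on -0.95 and liver markers on 1.07.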

How the data were processed

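The deposited table holds a linear signal intensity per probe set for 45101 probe sets on each of 2 arrays, from pooled lungs. Trizol and an RNeasy kit were used for extraction and biotin as label, per the labels. How the authors computed and scaled the values is not given in the sources used here. With 2% of probe sets trimmed at either end, the deposited mean was 150.0 on both arrays.

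The 64 control probe sets were set aside. A factor of 0.977 (log2 -0.03) on the array labelled Nmyc9a brought the median log2 ratio of measured probe sets to 0. Scaled signals had a floor at their 40th percentile, 49.3, and a ratio with a signal under it is a bound. Probe sets took the symbol of the platform annotation, updated through Entrez identifiers to RefSeq GRCm38.p6, which matched 34741 of 34945 probe sets with 1 symbol. The 932 with several symbols and 9160 with none were not used for genes.

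Since each group is a single array, nothing was tested, and a 1.5-fold size rule was used to count genes. The genes of the group and all lists were chosen with earlier results of these data known. Named genes were the 9 with every probe set, Mycn, the 2 highest and 2 lowest measured genes of each list, and the 3 genes nearest to Sftpc and Sftpd. Lists of endothelial, mesenchymal, mesothelial, proliferation and liver markers are given by counts and medians only. Medians of the endothelial and mesenchymal lists were -0.01 and -0.13, and of the mesothelial list -0.83. Nkx2-1, Lpcat1, Lyz1, Mbl1 and genes under the floor were named after their values were seen, as were the bright genes with a mean signal of 1000 or more as a background. Scripts used Python 3.11.15, numpy 2.4.6 and pandas 2.3.3, and the scaling and counting were tested on simulated data.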

Additional observations from a re-analysis of the deposited data

How the results depend on the processing

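The 9 alternative settings were the values as deposited, quantile normalization, loess with a span of 0.3, the floor moved to the 20th or 60th percentile, no floor (signals under 1 raised to 1), a pseudocount of 16 in place of the floor, a median over probe sets in place of the brightest, and leaving out probe sets ending in _x_at, _s_at or _a_at. Under all 9, none of the 9 genes was 1.5-fold higher and only Sftpd was 1.5-fold lower. With a 2-fold size rule the count of lower genes was 0. The group's median ranged from -0.04 with the floor at the 20th percentile to 0.21 after loess, so its sign is not settled. Of 81 recomputed ratios of single genes, 79 moved by less than the SD between probe sets. The exceptions were Napsa at 0.42 with the median over probe sets, and Sftpa1 at 0.36 without its brightest probe set, which ends in _a_at. Most of these settings can do little but shift the brightest probe sets of all 9 genes alike. The count of 79 was thus nearly fixed beforehand and is no check of single genes. Ratios of Sftpc, Abca3, Slc34a2 and Lyz2 stayed above 0 and that of Sftpd below 0 under all 9. Sftpb, Sftpd, Slc34a2 and Lyz2 have 1 bright probe set each. For them a median over probe sets and leaving out probe sets by their ending change nothing. Loess moved all 9 genes by nearly the same amount, and quantile normalization raised all but Sftpc. Over all measured genes, the floor at the 20th percentile gave 1494 genes at least 1.5-fold higher and 2123 lower among 15711, and the floor at the 60th percentile gave 481 and 644 among 9377, against 797 and 1222 among 12600. A different number of genes is measured at each floor. Dim probe sets, such as the second of Napsa, are limited by signal over background. No paired analysis was possible because each group has 1 array and the labels give no replicate numbers.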

Other observations

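Relatives of these genes were looked at as well, from a list of 25 that held collectins, paralogs and lysosomal relatives, and the Itm2 genes, whose proteins share the BRICHOS domain with that of Sftpc. Of 18 measured, 1 was at least 1.5-fold higher and none was 1.5-fold lower, near or under the background of 6.33% and 9.70%. Their median was 0.13, beside -0.09 over all measured genes. Slc34a3, a paralog of Slc34a2 best known from kidney, stood at 1.16 from signals close to the floor (50.1 and 111.6), and Bri3 stood at 0.48. The lowest were Itm2a at -0.57 (1365 and 919.2) and Mbl1 at -0.53. Colec10, Colec11, Slc34a1, Abca2, Lamp5, Cxcl2 and Cxcl5 were under the floor on both arrays.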
